A study of Mus musculus with 26 samples.

Results

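The subset described here is a group of skin fibroblasts with transcripts of both Ctla2a and C4b in the same droplet. Its members were chosen by measured values: in each of 2 single-cell tubes, barcodes with at least 500 genes and at most 10% mitochondrial UMIs were kept, and a member has at least 2 Ctla2a UMIs, at least 1 C4b UMI, at least 1 Col1a1 UMI and 0 Ptprc UMIs. A UMI is a molecular tag that counts each captured RNA molecule once. The comparison cells, called the other fibroblasts, are all remaining kept cells with Col1a1 and without Ptprc. In tube 1, 4021 of 18172 fibroblasts were members (22.13%, exact 95% binomial interval 21.53 to 22.74), and in tube 2, 2655 of 4728 (56.15%, 54.73 to 57.58). That is 6676 members among 22900 fibroblasts and 23153 kept barcodes.

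All cells came from FACS-sorted fibroblasts of Prrx-Cre mice, a strain whose Cre is driven from the gene of the mesenchymal factor Prrx1, and were split into Prrx1-positive fibroblasts (PPF) and Prrx1-negative ones (PNF). The single-cell part pooled PPF and PNF from caudal and ventral skin, unwounded and wounded, as 8 hashtagged samples in 2 tubes, both labelled as postnatal ventral skin. The labels do not say which hashtag marks which sample, so each tube was treated as 1 pooled sample, and lineage, site and wounding could not be compared in single cells. The series' design text speaks of wound tissue, and no bulk label gives a wound state. The bulk part has 24 libraries of sorted ventral skin fibroblasts in 8 groups: PNF at E16.5 (2 libraries), E18.5 (4), P1 (4) and P30 (2), and PPF at E16.5 (2), E18.5 (2), P1 (2) and P30 (6). The sources used here do not give sex, the age of the single cells in days, the FACS gate, the reporter allele or any pooling of animals. The genotype label ties the driver to early limb bud mesenchyme and some craniofacial mesenchyme.

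Fibroblasts of the dermis lay down and remodel the collagen matrix, and they also make complement proteins, lipid carriers and secreted signals. Ctla2a encodes an inhibitor of cathepsin L-type cysteine proteases. C4b encodes complement C4, which is cleaved in the classical and lectin pathways and deposited on surfaces. Apoe carries lipids between cells, and Gpnmb is a transmembrane glycoprotein of lysosomes and melanosomes that many cells raise when their lysosomes are loaded. Acta2 and Tagln, which encode smooth muscle actin and an actin-binding protein, are the usual marks of contractile myofibroblasts.

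Both genes of the rule have close copies. Ctla2a (ENSMUSG00000044258) lies on the minus strand at chr13:60934155-60936625 (GRCm38, GENCODE vM21), near its relative Ctla2b at chr13:60895350-60897447. C4b (ENSMUSG00000073418) lies at chr17:34728380-34743882, near C4a at chr17:34809092-34823464. The sources used here do not say how reads shared by such copies were assigned, so values of Ctla2a and C4b are uncertain to that extent.

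The label held in part. Apoe and Gpnmb, which the rule did not use, were higher in members than in the other fibroblasts of both tubes. Apoe had 1567 CPM (its share of all UMIs summed over the cells, scaled to a common total) in members and 963.7 in the other fibroblasts of tube 1, a ratio of 1.626 (exact 95% interval for counting error 1.6 to 1.653). In tube 2 Apoe had 898.4 against 660.9 CPM (1.359, 1.32 to 1.399). Gpnmb had 321.4 against 173.6 CPM (1.851, 1.784 to 1.921) in tube 1 and 287.5 against 172.6 CPM (1.666, 1.576 to 1.761) in tube 2. Among the other fibroblasts, those with C4b and 0 Ctla2a UMIs (3129 and 54 cells) had Apoe at 1515 CPM in tube 1 and 1008 in tube 2. Their Gpnmb was at 250.9 and 248.4 CPM. A high Apoe level was thus not particular to cells with both genes of the rule. Fibroblast genes were at full level in members: Col3a1 had 28404 and 27952 CPM in members and others of tube 1, and Dcn 17086 and 15217. Among 11 of the 12 fibroblast genes with at least 50 CPM in all fibroblasts, Postn and Thy1 were at least 1.25-fold lower in members of both tubes and none was 1.25-fold higher. The 4 label genes do not bound a separate group, however: Apoe was found in 80.88% of members and 59.86% of other fibroblasts of tube 1, and Gpnmb in 55.46% and 31.17%. With 1 pooled sample per tube and members selected on these cells, the differences are descriptions with no test, and the intervals cover counting error only.

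Low counts of both genes of the rule were also found in barcodes of other cell types, and in droplet data free RNA can give such counts. In tube 1, 38 barcodes with pericyte markers had 1259 Ctla2a CPM and 235.1 C4b CPM, and 123 barcodes with a Ptprc UMI, the leukocyte mark, had 1283 Ctla2a CPM, against 2125 and 461.2 in all fibroblasts. In tube 2, 17 pericyte-marked barcodes had 968.1 Ctla2a CPM and 249.5 C4b CPM and 50 Ptprc-positive barcodes 2941 Ctla2a CPM, against 4508 and 390.3 in fibroblasts. After thinning every cell to 3000 UMIs, at least 2 Ctla2a UMIs were found in 42.23% of 7765 fibroblasts of tube 1, in 46.34% of 41 Ptprc-positive barcodes (exact 95% interval 30.66 to 62.58) and in 25% of 16 pericyte-marked ones (7.266 to 52.38). In tube 2 the shares were 78.75% of 3332 fibroblasts, 79.17% of 24 Ptprc-positive barcodes (57.85 to 92.87) and 46.67% of 15 pericyte-marked ones (21.27 to 73.41). A C4b UMI was found in 45.74% of thinned fibroblasts and 41.46% of Ptprc-positive barcodes in tube 1, and in 48.71% and 45.83% in tube 2. The median depths before thinning were 2727 and 4488 UMIs in fibroblasts, 1945 and 2683 in Ptprc-positive barcodes and 2266 and 4747 in pericyte-marked ones. In pericyte-marked barcodes the C4b share was 18.75% (4.047 to 45.65) in tube 1 and 33.33% (11.82 to 61.62) in tube 2. The shares of fibroblasts that reach the rule's counts thus lay within the intervals of Ptprc-positive barcodes in both tubes, while in tube 2 the Ctla2a share lay above that of pericyte-marked barcodes. The Ptprc-positive barcodes also carried 12773 and 13706 Col1a1 CPM, against 21232 and 23405 in fibroblasts, and the part of free RNA and of doublets in low counts of Ctla2a and C4b was not tested. At 8 or more Ctla2a UMIs the shares were 19.18% of fibroblasts against 9.756% of Ptprc-positive barcodes in tube 1 (2.723 to 23.13) and 42.44% against 29.17% in tube 2 (12.62 to 51.09). The fibroblast shares again lay within these intervals, which rest on 4 and 7 Ptprc-positive barcodes with such counts.

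Markers of other cell types moved with membership in part. Cells with at least 2 UMIs of each of at least 2 endothelial markers (a list with Ly6c1, at 609 CPM in members and 587.9 in others of tube 1) made up 3.059% of members and 1.42% of others in tube 1, and 5.424% and 3.763% in tube 2. For pericyte and smooth muscle markers the shares were 7.535% and 3.964%, and 21.47% and 12.2%. Single genes of these lists went different ways. Rgs5 had 7.406 CPM in members and 17.92 in others of tube 1 and 5.084 and 31.67 in tube 2, and Acta2 was also lower in members of both. Kcnj8 and Abcc9, of the same pericyte list, were higher in members of both tubes, with values given below. The endothelial gene Cdh5 was near 0, at 0.1371 and 0.1214 CPM in tube 1. The summed level of the 14 pericyte genes was 626.4 CPM in members and 673.4 in others of tube 1, and 758.4 and 816.3 in tube 2. Macrophage, lymphocyte, mast cell, keratinocyte, adipocyte and erythroid markers each marked under 1% of members. Members and others were both chosen with 0 Ptprc UMIs and at least 1 Col1a1 UMI, so low leukocyte shares were largely set in advance. Melanocyte markers marked 0.04974% of members and 0.01413% of others in tube 1, and 0.8663% (exact 95% interval 0.5499 to 1.297) and 0.09648% (0.01169 to 0.3481) in tube 2. The 18 macrophage and dendritic genes summed to 63.43 CPM in members and in others of tube 1. Members were also deeper, with a median of 3276 UMIs against 2599 in tube 1 and 4932 against 3934 in tube 2. Mitochondrial shares were alike, 6.379% and 6.489% in tube 1 and 4.228% and 4.257% in tube 2. Of the barcodes, 42 occurred in both tubes, 8 of them members in tube 1 and 22 in tube 2. The female transcript Xist was lower in members, at 714.7 against 1013 CPM in tube 1 and 358.3 against 537.9 in tube 2, and in thinned cells the Y-linked Ddx3y averaged 0.07534 against 0.03648 UMIs per cell in tube 1 and 0.09906 against 0.066 in tube 2. The part that depth, sex and other cell types play in the differences below was not tested.

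Of 2275 genes with at least 20 UMIs and 50 CPM in members of each tube, 0 (0%) were at least 2-fold higher in both. Of 2343 genes with at least 50 CPM in the others of each tube, 4 (0.171%) were at least 2-fold lower: Acta2, Aqp1, Coch and Tpm2. Each floor admits genes through the group where they are higher, also for the genes named below. In cells of 5000 to 20000 UMIs, 3 genes passed 2-fold as higher (Gas6, Gpnmb and Sectm1a) and 5 as lower. With 1.25-fold as the size, 30 of 2316 genes with at least 50 CPM over all fibroblasts of each tube were higher (1.3%) and 30 were lower (1.3%). The median ratio over those genes was 0.9533 in tube 1 and 0.9776 in tube 2. The genes below are the 20 with the highest and the 12 with the lowest ratios when the tube with the weaker difference is taken, and the plot of named genes shows each with its interval.

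**Figure D1:**
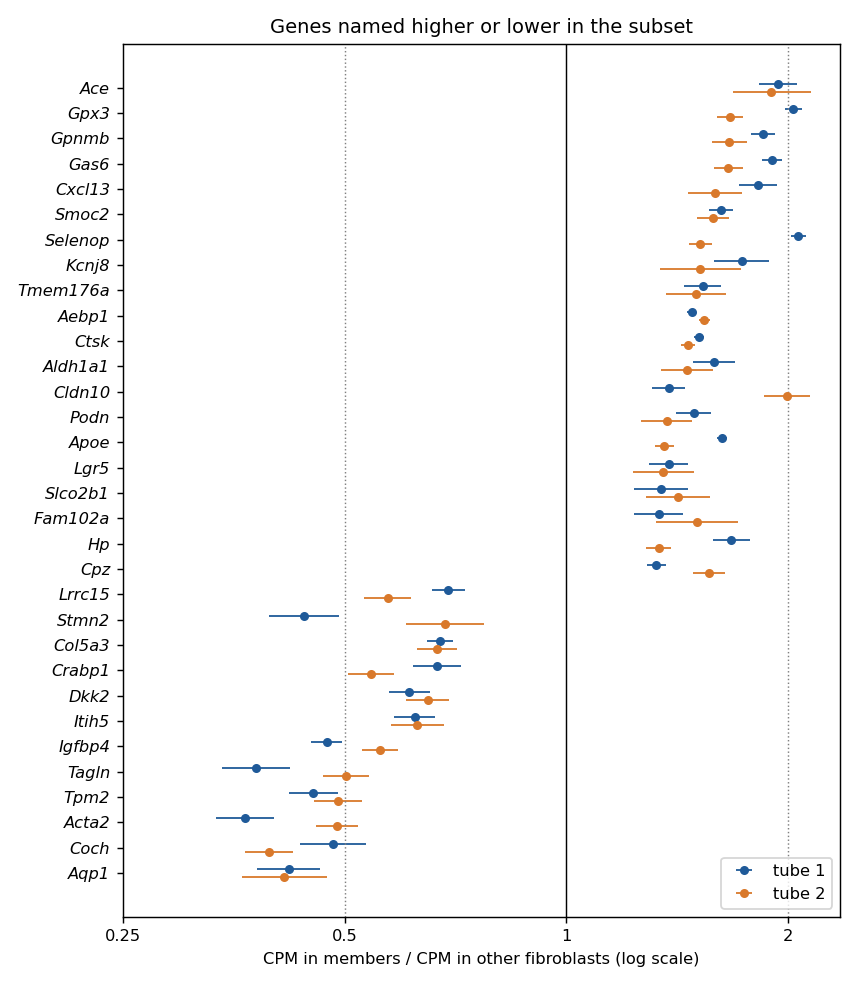
Ratio of CPM in members to CPM in the other fibroblasts (log scale) for the 20 genes named higher and the 12 named lower, with exact 95% intervals for counting error, in tube 1 (blue) and tube 2 (orange). Dotted lines mark 0.5 and 2. The higher genes sit between 1.325 (Cpz) and 2.065 (Selenop) in tube 1, and Acta2 is the lowest there, at 0.3664.

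By that order Ace, Gpx3, Gpnmb, Gas6 and Cxcl13 came first among the higher genes. Selenop, which carries selenium to tissues, had 824.1 CPM in members and 399.1 in others of tube 1 (ratio 2.065, interval 2.017 to 2.114) and 631.5 and 415.1 in tube 2 (1.521, 1.468 to 1.577). Gpx3, a secreted selenium-dependent glutathione peroxidase, had 650.9 and 319.9 CPM in tube 1 (2.035) and 557 and 333.9 in tube 2 (1.668). Both are secreted selenoproteins, and for both the 95% intervals lay above 1 in each tube. Haptoglobin, Hp, had 127.2 and 75.93 CPM in tube 1 and 466 and 349.2 in tube 2, but only 5.72% of members of tube 1 had a UMI of it. Its ratio turned when cells were thinned to 3000 UMIs and members were chosen again on the thinned counts. With the original members in thinned cells it averaged 0.406 UMIs per cell against 0.3119 in others of tube 1, and 0.8245 against 0.782 in tube 2.

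Ace, angiotensin-converting enzyme, came first in that order, with 125.8 and 64.86 CPM in tube 1 (ratio 1.939) and 66.91 and 35.22 in tube 2 (1.9). Gas6, the ligand of the Tyro3, Axl and Mertk receptors, had 463.3 and 243.6 CPM in tube 1 (1.902) and 418.4 and 252 in tube 2 (1.66). Smoc2, a matricellular calcium-binding protein, had 307.6 and 189.5 CPM in tube 1 (1.623) and 338.4 and 213.9 in tube 2 (1.582). Lgr5, an R-spondin receptor, had ratios of 1.378 and 1.355. Kcnj8, a potassium channel subunit known from pericytes, had 58.77 and 33.97 CPM in tube 1 and 52.78 and 34.72 in tube 2, and its partner Abcc9 had ratios of 1.345 and 1.587, beside the lower Rgs5 given above.

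Ctsk, the collagen-degrading cysteine protease cathepsin K, had 1763 CPM in members and 1164 in others of tube 1 (ratio 1.514) and 1644 and 1123 in tube 2 (1.465). Aebp1, a secreted collagen-binding protein, had 2129 and 1437 CPM in tube 1 (1.481) and 2765 and 1795 in tube 2 (1.54). Cpz, a carboxypeptidase that binds Wnt proteins, had ratios of 1.325 and 1.563, and Podn, a small leucine-rich proteoglycan, of 1.491 and 1.37. The retinaldehyde dehydrogenase gene Aldh1a1 had ratios of 1.586 and 1.459, and the claudin gene Cldn10 of 1.378 and 1.993. Cxcl13, a B cell chemokine, had ratios of 1.822 and 1.592 but was found in 7.759% of members and 5.039% of others of tube 1, and its ratio also turned in other settings. Tmem176a, Slco2b1 and Fam102a completed the higher genes, with ratios of 1.335 to 1.533 over both tubes.

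Among the lower genes Aqp1 and Coch came first, followed by the contractile genes Acta2, Tpm2 and Tagln. Acta2 had 37.78 CPM in members and 103.1 in others of tube 1 (ratio 0.3664, interval 0.3347 to 0.4005) and 100.4 and 205.6 in tube 2 (0.4882, 0.4571 to 0.5213). Tagln had ratios of 0.3797 and 0.5021, and the tropomyosin gene Tpm2 of 0.4535 and 0.49. Aqp1, a water channel, had 31.75 and 75.52 CPM in tube 1 and 23.22 and 56.07 in tube 2. Coch, an extracellular matrix protein, had ratios of 0.4829 and 0.3952. Igfbp4, a carrier of insulin-like growth factors, had 130.3 and 275.4 CPM in tube 1 (0.4731) and 142 and 254 in tube 2 (0.5592). Crabp1, a retinoic acid-binding protein of papillary and dermal papilla fibroblasts, had ratios of 0.6685 and 0.5432, and Dkk2, a Wnt modulator, of 0.6125 and 0.6482. Itih5, Col5a3, Stmn2 and the myofibroblast gene Lrrc15 had ratios between 0.4407 and 0.6916 over both tubes.

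Gene lists were counted in the same cells and hold many of the genes already named, so they are no separate support. Over all 2316 genes of that size, 1.3% were at least 1.25-fold higher and 1.3% lower in both tubes. Of the contractile and myofibroblast list, 5 of 9 measured genes were at least 1.25-fold lower in both tubes (Acta2, Lrrc15, Tagln, Tpm1 and Tpm2) and 0 higher, with median ratios of 0.7387 and 0.7195. Of the lysosome and cathepsin list, 4 of 18 were higher (Ctsh, Ctsk, Gpnmb and Hexa) and 0 lower, with medians of 1.167 and 1.169. Ctsh and Hexa, a cathepsin and a hexosaminidase subunit, had ratios of 1.263 and 1.389 and of 1.287 and 1.321. Of the papillary dermis list, 2 of 3 were lower (Crabp1 and Trps1), and of the reticular dermis and fascia list 2 of 11 were higher (Cpz and Gpx3) and 1 lower (Coch). Among complement genes other than C4b, 1 of 7 was higher, Serping1, the C1 inhibitor (1.262 and 1.345). C3 was at 1.156 and 1.699 and C1s1 at 1.208 and 1.174, so no other complement component passed the size in both tubes. Of the lipid list 2 of 13 were higher, Apoe and the phospholipid transfer protein gene Pltp (1.384 and 1.271).

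Other lists stayed with the background. In the adventitial and universal fibroblast list, 0 of 14 genes passed 1.25-fold in both tubes, in the immediate early and heat shock list 0 of 20, and in the interferon list 0 of 7. In the matrix list 1 of 26 did, Postn (0.7238 and 0.6429), a matricellular protein of activated fibroblasts. Among chemokines and acute phase genes 1 of 19 did, Hp, while Saa3 was at 5761 against 2818 CPM in tube 1 and 4151 against 3337 in tube 2, and Mgp, from the perivascular and reticular stroma list, went opposite ways (1.379 and 0.6181). Prrx1 itself did not separate the cells, at 615.6 and 611.9 CPM in tube 1 and 574.7 and 536.9 in tube 2. The lists share genes with one another, and all were drawn up with results of these data known.

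The members were a graded population and not a bounded one. Over members of tube 1, Ctla2a ranged from 2 to 250 UMIs with a median of 9, and the 10% of cells with most held 44.19% of all its UMIs. In tube 2 it ranged from 2 to 1041 with a median of 12, and those 10% held 52.18%. C4b had a median of 2 UMIs in each tube and up to 23 and 41. Just inside the rule, 284 members of tube 1 and 85 of tube 2 had exactly 2 Ctla2a and 1 C4b UMIs, and just outside it, 1418 and 103 cells had 1 Ctla2a UMI with C4b. Gpnmb was at 153.1 CPM in the first group of tube 1 and 222.6 in the second, and Apoe at 822.9 and 1360. The outer cells could hold more than 1 C4b UMI and had 789.3 C4b CPM against 291.7, so the groups differ in C4b by how they were drawn. In cells with at least 10 Ctla2a and 3 C4b UMIs (1142 and 706 cells), Gpnmb was at 491.9 and 374 CPM and Selenop at 1334 and 787.4.

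When all fibroblasts were thinned to 3000 UMIs and classed by Ctla2a alone, the levels of several other genes were graded in the same order. From 0 to at least 32 Ctla2a UMIs, C4b went from 0.7988 to 3.268 mean UMIs per cell in tube 1 and from 0.6007 to 2.14 in tube 2. The share of cells with a C4b UMI went from 38.9% to 73.23% and from 30.21% to 62.44%. Gpnmb went from 0.397 to 1.394 and from 0.4688 to 1.06, Selenop from 0.9965 to 3.742 and from 1.007 to 3.161, and Gas6 from 0.4898 to 1.952 and from 0.5625 to 2.01. Gas6, Gpnmb and Selenop were higher in each class than in the one before it in both tubes. Apoe was less even, going from 2.204 to 6.253 in tube 1 and from 1.906 to 3.15 in tube 2. In tube 1 the class of 2 to 3 UMIs (2.172) lay below those of 1 (2.389) and 0. In tube 2 the class of 4 to 7 UMIs lay below that of 2 to 3. Acta2 went from 0.4547 to 0.06818 and from 0.8785 to 0.09845, and Igfbp4 from 1.054 to 0.2525 and from 1.069 to 0.1554, while Prrx1 stayed between 1.605 and 2.052. The classes held 396 to 3136 cells in tube 1 and 288 to 653 in tube 2. Cells under 3000 UMIs were left out, 1738 members and 8669 others in tube 1 and 626 and 770 in tube 2.

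**Figure D2:**
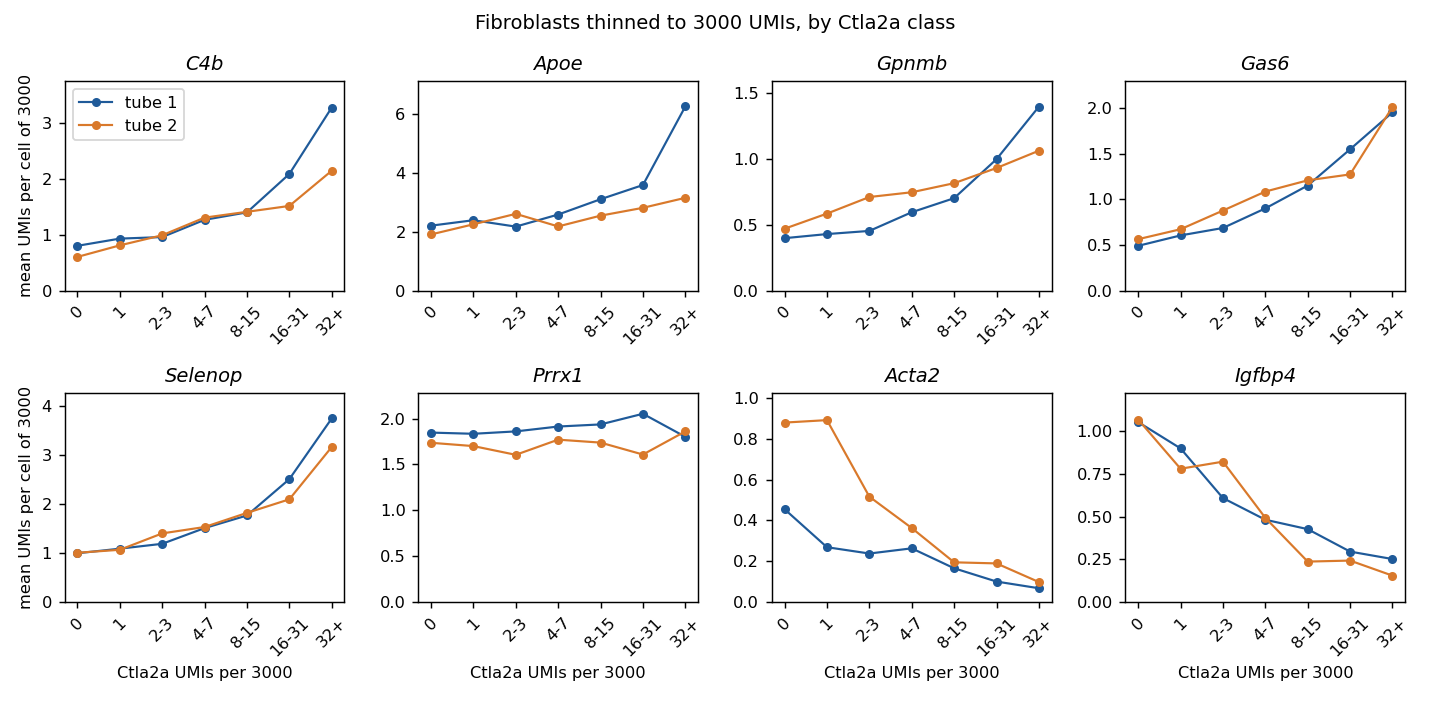
Mean UMIs per cell thinned to 3000 UMIs for 8 genes (vertical axes, each from 0) across 7 classes of Ctla2a UMIs (horizontal axes), in tube 1 (blue) and tube 2 (orange). Points are means over the cells of a class. Gas6 ends at 1.952 and 2.01 and Acta2 at 0.06818 and 0.09845, while Prrx1 is nearly level.

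The genes of the rule went with different neighbours. Thinned fibroblasts were split into cells with neither gene, with Ctla2a alone, with C4b alone and with both. Gpnmb was at 102.8, 148.2, 184.9 and 320.5 CPM in these classes of tube 1 and at 110.4, 198.5, 312.5 and 346.6 in tube 2. Apoe was at 540.6, 569.6, 1074 and 1454 CPM in tube 1, so that its level followed C4b more than Ctla2a there, and at 564.1, 688.2, 975 and 1038 in tube 2. Eln, elastin, followed Ctla2a and not C4b: it was at 1429, 2539, 1081 and 1883 CPM in tube 1 and at 1246, 2377, 1190 and 2078 in tube 2. C3 followed C4b, at 487, 472.7, 1167 and 937.3 CPM in tube 1 and at 460.1, 349.4, 875 and 682.3 in tube 2. Tagln was at 123 CPM with neither gene and 25.5 with both in tube 1, and at 242.9 and 62.18 in tube 2. In the thinned cells 49.69% of C4b-positive and 35.94% of C4b-negative fibroblasts of tube 1 had at least 2 Ctla2a UMIs, against 85.21% and 72.62% in tube 2.

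The highest Ctla2a class gave a sharper set of genes. This contrast, chosen after seeing the data, set fibroblasts with at least 32 Ctla2a UMIs per 3000 (396 and 386 cells) against those with 0 or 1 (4486 and 708). Of 2291 genes, 24 were at least 2-fold higher in both tubes (1.05%) and 28 at least 2-fold lower (1.22%), with median ratios of 0.8917 and 0.9023 over all of them. Wisp2, a matricellular protein of the CCN family, led the higher genes at 159.1 against 39.9 CPM in tube 1 and 196.9 against 49.44 in tube 2. Gas6 followed (ratios 3.725 and 3.206), then Selenop (3.652 and 3.032) and Smoc2 (3.27 and 2.766). Elastin and 2 genes that act on matrix proteins were among them. Eln had 3564 against 1290 CPM and 3698 against 1227. Lox, which cross-links collagen and elastin, had ratios of 2.595 and 2.058, and Adamts2, a procollagen protease, of 2.111 and 2.254. Of the matrix list, 2 of 26 measured genes were higher (Eln and Lox) and 1 lower (Postn), with median ratios of 1.055 and 1.155. The collagen gene Col5a3 was among the lower genes (0.1679 and 0.3521). Lgr5 had ratios of 2.54 and 3.306, and Itgbl1, Ogn, Dpep1, Svep1, Cldn10, Podn, Aebp1, Ctsk, Pltp and Ace were also past 2-fold.

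The 28 lower genes included 3 of 9 genes of the contractile list (Acta2, Tagln and Tpm2) and 3 of 19 of the chemokine and acute phase list (Cxcl1, Cxcl2 and Ptx3), and most of them belong to neither. Acta2 had 22.73 against 132.9 CPM (0.171) in tube 1 and 32.82 against 295.2 (0.1112) in tube 2. Timp1, an inhibitor of matrix metalloproteases, had 463 against 1010 CPM and 418 against 2098. The neutrophil chemokine genes Cxcl1 and Cxcl2 had ratios of 0.4628 and 0.4794 in tube 1 and 0.3017 and 0.1297 in tube 2, and the pentraxin gene Ptx3 of 0.3102 and 0.1759. Postn had 776.9 against 1931 CPM and 489.6 against 1317, and Vcan, a large proteoglycan, ratios of 0.428 and 0.4585. The glycolytic gene Pgk1 had ratios of 0.3288 and 0.4391.

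**Figure D3:**
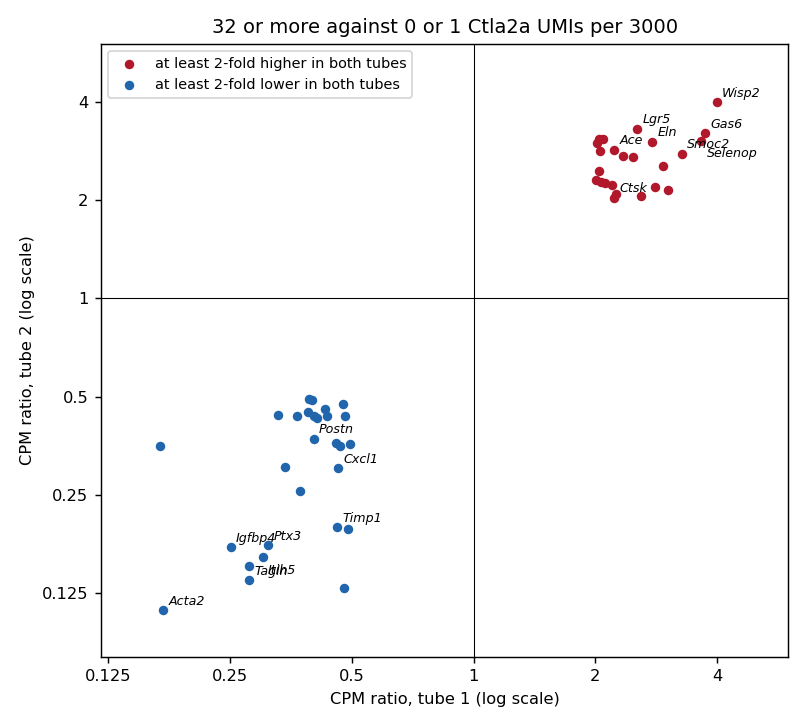
CPM ratio of the highest Ctla2a class (at least 32 UMIs per 3000) to fibroblasts with 0 or 1, in tube 1 (horizontal) and tube 2 (vertical), both on log axes, for the 24 genes at least 2-fold higher (red) and the 28 at least 2-fold lower (blue) in both tubes. Wisp2 lies at 3.987 and 3.983 and Acta2 at 0.171 and 0.1112. Genes under 2-fold are not drawn.

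Mlana, a melanosome gene of the melanocyte list, was singled out after its values were seen, at 47.8 CPM in members and 10.85 in others of tube 1 (ratio 4.403) and 35.02 and 14.66 in tube 2 (2.39), below the level set for naming genes. Thinned cells with both genes of the rule had 47.59 CPM of Mlana against 3.952 with neither in tube 1, and 47.24 against 4.274 in tube 2. It went from 0.02328 to 0.3182 mean UMIs per cell across the Ctla2a classes of tube 1 and from 0.02083 to 0.2487 in tube 2. Dct, a defining melanocyte gene, was at 0.2743 and 1.457 CPM in members and others of tube 1 and at 9.477 and 0.2951 in tube 2, and Tyr was at 0 in members of both tubes. Gpnmb, which melanocytes also express, was higher in the same classes, and Mitf, its transcriptional regulator in pigment cells, had ratios of 1.163 and 1.182. The part of the melanocyte-marked cells given above in the values of Gpnmb and Mlana was not tested.

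Hashtags split each tube into samples whose identity the labels do not give, and 6 hashtags held nearly all tag counts where the labels name 8 samples. Of the fibroblasts, 65.33% in tube 1 and 67.2% in tube 2 carried no hashtag at 4 times its median or more, and 30.34% and 26.82% carried exactly 1. Among the latter, members made up 18.44% (hashtag 5) to 30.39% (hashtag 3) of fibroblasts in tube 1 and 49.4% (hashtag 6) to 64.55% (hashtag 2) in tube 2, so the subset was present under every hashtag. Member shares of cells with no hashtag were 21.61% and 54.2%, close to the whole tubes. Cells with 2 or more hashtags, which include doublets, were members more often, 28.3% and 73.5%.

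**Figure D4:**
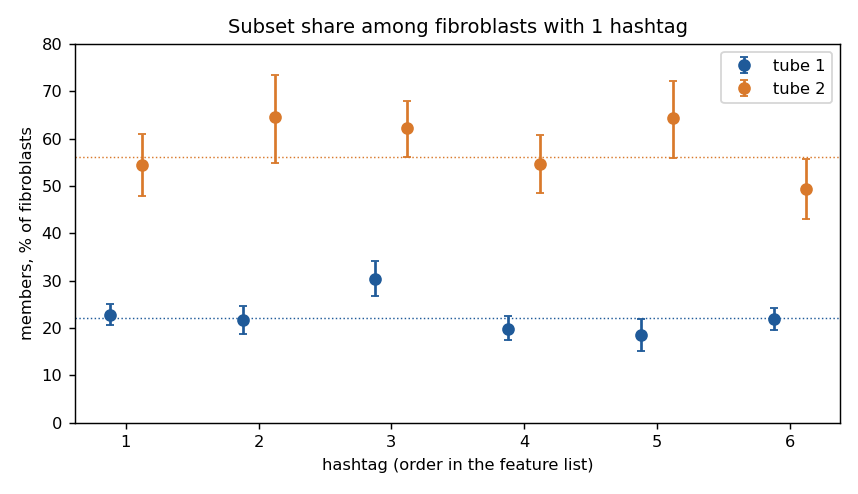
Members as a percent of fibroblasts (vertical axis) among cells with exactly 1 of 6 hashtags (horizontal axis), with exact 95% binomial intervals, in tube 1 (blue) and tube 2 (orange). Dotted lines are the shares over each whole tube, 22.13% and 56.15%. All hashtags of tube 2 lie above all of tube 1, and within tube 1 hashtag 3 is highest.

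The named genes were also compared within hashtags. They were named from these same cells, so their direction there was largely set in advance and the split is a description. Over the 12 combinations of tube and hashtag, Gpnmb was higher in members in 12 (ratios 1.139 to 2.5), as were Gas6 (1.278 to 2.266), Selenop (1.262 to 2.399), Smoc2 (1.142 to 1.831), Aebp1 (1.169 to 1.641) and Ctsk (1.166 to 1.821). Kcnj8, Cldn10 and Fam102a were higher in 12 too. Ace (0.9371 to 3.631), Cxcl13 (0.3978 to 34.62), Gpx3, Tmem176a, Aldh1a1, Podn, Slco2b1 and Cpz were each higher in 11. Apoe (0.6946 to 1.984) and Lgr5 (0.7741 to 3.742) were higher in 10 of 12 and Hp in 9 (0.2839 to 4.654). Lrrc15 was lower in 12 of 12 (0.5175 to 0.986). Acta2, Tagln, Tpm2, Aqp1, Coch and Col5a3 were each lower in 11 of 12, and Acta2 was 18.04 times higher in members in the remaining one. Dkk2 was lower in 10, Igfbp4 and Crabp1 in 9 and Itih5 and Stmn2 in 8. The 12 combinations are not replicates, since they share 2 tubes and stand for an unknown assignment of samples.

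The bulk libraries were not used by the rule and offer a test in sorted cells of known lineage and age. In bulk, fewer cells of a subset and less RNA per cell cannot be told apart. Libraries held 4431055 to 17945349 counts, and 15557 genes passed the filter on low counts. Beside these results stands the erythroid share of counts, which was 43.005% in PNF E18.5 A and 44.610% in PNF P30 A and at most 10.04% elsewhere. Nothing in the labels ties libraries to separate animals, so p-values measure the spread between libraries, which may be technical. Some pairs were far closer than others by chi-square per degree of freedom of their counts, where a low value means alike libraries. PPF P30 C and D had 21.4 and E and F 27.7, against 133 to 331 for the other PPF P30 pairs. PNF E18.5 C and D had 9.33, against 106 to 436 for the other pairs of that group. The fit counted each as a separate library, so its p-values may be too small.

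Of the 4 label genes, Gpnmb was called between ages. At E16.5 the PNF libraries had 2.3 and 1.083 CPM of it and the PPF libraries 0 and 1.034. By P30 the PNF libraries had 6.476 and 295 CPM, and the 6 PPF libraries ran from 110.9 through a median of 360 to 571.9. All 8 libraries at P30 lay above all 4 at E16.5, and the lowest at P30 was the PNF library rich in erythroid counts. The log2 fold change averaged over the lineages was 7.83 (SE 1.189, edgeR quasi-likelihood test, Benjamini-Hochberg adjusted p = 0.005218). Without PNF P30 B it was 5.54, and it was past the threshold in 21 of 24 fits that left out 1 library, the exceptions being PNF E16.5 A, PNF E16.5 B and PPF E16.5 A.

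Ctla2a, C4b and Apoe had higher means at P30, but none passed the test. For Ctla2a the E16.5 libraries had 56.74 and 40.08 CPM (PNF) and 4.969 and 2.955 CPM (PPF), and those of P30 had 82.15 and 14.84 in PNF and 34.73 to 2584 (median 156.6) in PPF at P30, so the ages overlapped in PNF. Its log2 fold change was 3.56 (SE 1.311, edgeR adjusted p = 0.1819). C4b was at 5.477, 10.56, 4.348 and 43.43 CPM at E16.5 and at 0 and 564.1 in PNF and 129.1 to 1449 (median 376.4) in PPF at P30 (log2 4.94, SE 2.038, edgeR adjusted p = 0.2297). The PPF libraries were all above the E16.5 libraries for C4b, and the PNF libraries lay on both sides. Without PNF P30 B the C4b log2 fold change was -2.10, with an adjusted p of 0.8978 in edgeR, and the remaining PNF library at P30 had no C4b count. Apoe was at 0.1477 to 2.07 CPM at E16.5 and 4.09 to 13.2 at P30, with no overlap (log2 2.93, SE 0.876, edgeR adjusted p = 0.1054). These calls turn on the tool and the design: with the replicate block edgeR called Ctla2a (log2 3.94, adjusted p = 0.04675), DESeq2 called all 3 higher at P30 (adjusted p = 0.01273 for Ctla2a, 0.0367 for C4b and 0.000614 for Apoe), and limma voom called C4b and Apoe (adjusted p = 0.01949 and 0.000826). Apoe has 10 transcripts in the deposited tables and few counts in bulk, so its low level there is not comparable with its level in the cells.

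**Figure D5:**
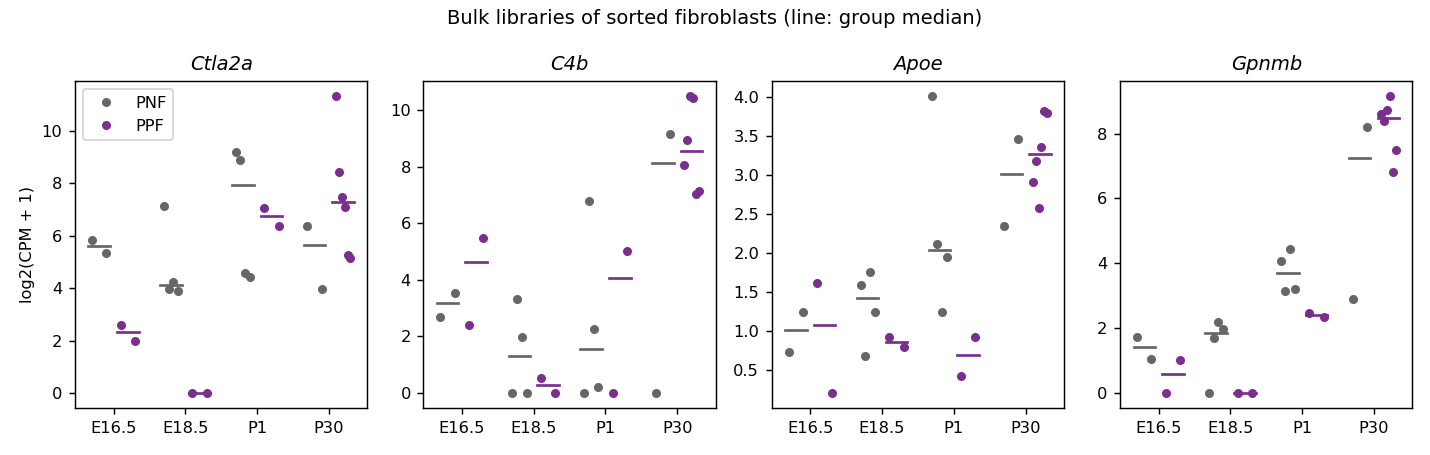
Levels of Ctla2a, C4b, Apoe and Gpnmb in 24 bulk libraries as log2(CPM + 1) (vertical axis, a separate scale for each gene) by age (horizontal axis), for PNF (grey) and PPF (purple). Each point is 1 library and each line the group median. Gpnmb at P30 runs from 6.476 to 571.9 CPM and lies above every library at E16.5.

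The genes named higher in members had mostly higher levels at P30. In P30 against E16.5, 64 of 15557 genes were called higher by edgeR (0.411%) and 52 lower (0.334%). Of the 20 genes named higher in members, 5 were called higher and 0 lower, 20 of 20 had a positive log2 fold change, and their median was 2.785. Over all genes 49.3% were positive, with a median of -0.015, and RLE scaling shifted that median to 0.286 with all 20 still above it. At an unadjusted p under 0.05 in edgeR there were 11 of the 20, against 2464 of all 15557. The 12 genes named lower had 0 calls by edgeR, 4 at an unadjusted p under 0.05, and split into 6 positive and 6 negative with a median of -0.043. The 20 were chosen in postnatal cells for their difference within that tissue, and the count is a description. Leaving out 1 library gave 0 to 8 calls among the 20, with 0 when PNF E16.5 A, PNF E16.5 B or PPF E16.5 A was absent and 1 without PPF E16.5 B. Positive values then numbered 15 to 20, the fewest without PNF P30 B, where 4 were called. With the replicate block 2 of the 20 were called and 18 were positive, where over all genes 16 were called higher and 4 lower.

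The 5 genes called higher at P30 were Gpnmb, Ace, Gpx3, Aebp1 and Ctsk. Gpx3 was at 63.98 to 88.35 CPM at E16.5, at 126.5 and 872.2 in PNF at P30 and at 1991 to 18910 (median 3918) in PPF at P30 (log2 4.63, SE 0.791, edgeR adjusted p = 0.009006). No P30 library of Gpx3 reached down to the E16.5 range. Ctsk was at 366.5 to 654.5 CPM at E16.5, at 802 and 4662 in PNF and 3670 to 8058 (median 5241) in PPF at P30 (log2 2.99, SE 0.571, edgeR adjusted p = 0.02042), again with no overlap. Aebp1 was at 49.29 to 151.8 CPM at E16.5 and at 45.33 and 425.7 in PNF and 983.7 to 2503 in PPF at P30 (log2 2.81, SE 0.541, edgeR adjusted p = 0.02042), and the lower PNF library at P30 lay below every E16.5 library. Ace was at 0.7668 and 0.2708 CPM in the PNF libraries and at 0 in both PPF libraries of E16.5, and at 0 and 35.24 in PNF and 16.35 to 426.7 in PPF at P30 (log2 9.22, edgeR adjusted p = 0.02905). Since PPF at E16.5 had no Ace count, its fitted fold depends on the fit's prior count. Gas6 was at 30.74 to 89.68 CPM at E16.5 and at 0 and 409.9 in PNF and 1019 to 2344 in PPF at P30 (log2 3.39, SE 0.877, edgeR adjusted p = 0.06814) and was not called.

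Of the 24 genes of the highest Ctla2a class, 22 were tested in bulk, 6 were called higher at P30 by edgeR (Ace, Adamts2, Aebp1, Ctsk, Gpx3 and Itgbl1) and 19 were positive, with a median log2 fold change of 2.964. Over all genes 0.411% were called higher and 49.3% were positive, with a median of -0.015. Ace, Aebp1, Ctsk and Gpx3 were already counted among the 20 genes named higher, so the sets are not separate. Adamts2 had a log2 fold change of 2.94 (SE 0.670, edgeR adjusted p = 0.04214). Eln was at 1.27 (edgeR adjusted p = 0.2983) and Lox at -0.32 (edgeR adjusted p = 0.8318), and neither was called. Of the 28 lower genes, 24 were tested and 0 were called in either direction by edgeR, with 5 at an unadjusted p under 0.05, against 2464 of all 15557.

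Between lineages edgeR called none of the genes named in the subset, and other settings called some. In PPF against PNF averaged over the 4 ages, 13 genes were called higher by edgeR (0.0836%) and 92 lower (0.591%), and 0 of the 20 higher and 0 of the 12 lower genes were among them, with 7 and 3 at an unadjusted p under 0.05, against 2163 of all 15557. The 20 split into 9 positive and 11 negative values, where 42.4% of all genes were positive. DESeq2 called 6 of the named genes, 3 of the 20 as higher, where over all genes it called 121 higher and 712 lower. Ctla2a had a log2 fold change of -3.26 (SE 1.066, edgeR adjusted p = 0.1451) and Gpnmb of -2.33 (SE 0.782, edgeR adjusted p = 0.1539). Both had 0 CPM in the 2 PPF libraries at E18.5, so their fitted folds depend on the prior count and are no bound. Their means over libraries went the other way, 294.8 CPM in PPF against 122.4 in PNF for Ctla2a and 167.4 against 30.52 for Gpnmb. Of the 12 PPF libraries, 6 are of P30, against 2 of the 12 PNF libraries. Ctla2a was called lower in PPF by DESeq2 (adjusted p = 0.007367), and by edgeR without a filter (0.03618), with the replicate block (0.04317) and without PPF P30 A (0.04886). Gpnmb was called lower in PPF by DESeq2 (adjusted p = 0.03119) and by edgeR without the 2 erythroid-rich libraries (adjusted p = 0.0155). In PNF at E18.5 Ctla2a was at 138.2, 14.53, 17.85 and 13.91 CPM. C4b was at -0.44 (SE 1.186, edgeR adjusted p = 0.9934) and Apoe at -0.90 (SE 0.551, edgeR adjusted p = 0.5208). At P30 alone, Aebp1, Aldh1a1, Cldn10, Gas6, Gpx3 and Slco2b1 were each higher in all 6 PPF libraries than in both PNF libraries. The other genes named higher in members overlapped between the lineages at P30. How many of all genes part the lineages in this way was not counted. This is a description with no test of that age, and one of those PNF libraries is the one rich in erythroid counts. Of the 24 tested genes lower in the highest Ctla2a class, 1 was called, Thbs4, a matricellular thrombospondin, which was lower in PPF (log2 -3.99, SE 0.798, edgeR adjusted p = 0.02142). Both PPF libraries at E18.5 had 0 CPM of Thbs4, so its fold also depends on the prior count, and at E16.5 and P30 its mean was higher in PPF (78.34 against 32.22 CPM and 110.5 against 46.8).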

How the data were processed

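Skin of Prrx-Cre mice was digested in collagenase and fibroblasts were sorted, per the labels' protocols. Bulk cDNA was made from a low RNA input, amplified and read in pairs. The deposited bulk values are whole read counts per transcript per the file headers, which the authors' file naming credits to featureCounts, and the submitters' processing notes name mm10. For single cells the authors deposited UMI counts, a row per gene or hashtag and a column per barcode, from the 10x Chromium platform. The submitters' processing notes name Seurat 3.2 and 3.1.1, and the sources used here do not give the aligner.

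Counts of the 82916 of 95883 transcripts found in GENCODE vM21 were summed to genes, which left 3.3 to 7.1% of counts out. How reads shared by transcripts were counted is not given, so levels of different genes were not compared. A fit in edgeR 4.0.16 (R 4.3.3) took the 8 groups as terms, with TMM scaling, filterByExpr, 16 residual degrees of freedom and Benjamini-Hochberg adjustment over 15557 genes (threshold 0.05, two-sided). The SE is the log2 fold change divided by the square root of F. Amplified reads carry no molecular identifiers, and all intervals cover counting error only.

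In single cells (Python 3.11.15, scipy 1.17.1), UMIs were summed over members and others of a tube, as CPM, and their ratio given with an exact conditional 95% interval. Cells were thinned with a fixed seed. Of 10 hashtag rows, the 6 with at least 1% of a tube's tag counts were used, and a cell carried a hashtag when its tag count plus 1 was at least 4 times the median plus 1. Doublets were not called, and cells with 2 or more hashtags were left out in an alternative. Genes named are the 20 with the largest smaller ratio of the tubes and the 12 with the smallest larger ratio. The floor was 20 UMIs and 50 CPM in members for the 20, and 50 CPM in the others for the 12. Mitochondrial, ribosomal, predicted and clone names and the genes of the rule were left out. The 4 label genes and up to 4 of the highest genes of each list were added. Other genes are named because they passed a list's fold, belong to the highest class or are defining markers, and Mlana, Eln, C3, C1s1, Mgp and Abcc9 were chosen after their values were seen. Lists were counted at 1.25-fold over genes of at least 50 CPM in all fibroblasts. Members and all 35 lists were chosen with earlier results of these data known. Functions were tested on simulated data. Alternatives were other thresholds, cell filters, depths, floors and summaries, and for bulk RLE scaling, no filter, a replicate block, DESeq2 1.42.0, limma 3.58.1 (voom) and leaving out libraries. The 1.25-fold size and the highest Ctla2a class were added after seeing the data.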

Additional observations from a re-analysis of the deposited data

Results flagged for a closer look

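In groups of 4 or 6 bulk libraries, some libraries lay far from the others of their group, which was looked for in 33 sets of values, and chance alone would give such a library in about 1 in 20 of them. Ctla2a was at 138.2 CPM in PNF E18.5 A, against 13.91 to 17.85 in the other libraries of that group, and that library is 43.005% erythroid counts. The same library had Prrx1 at 104.1 CPM, against 35.14 to 46.74 in the others. In PPF P30 A Ctla2a was at 2584 CPM, against 34.73 to 347.7. C4b was at 109.9 CPM in PNF P1 B, against 0 to 3.746. In PNF P1 A, with 10.04% erythroid counts, Apoe was at 15.2 CPM, against 1.353 to 3.312, and Gas6 at 173.3, against 120.5 to 129.1. The part of erythroid RNA in these values was not tested.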

How the results depend on the processing

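The member share moved with the rule and the depth. In tube 1 (22.13%) it was 29.93% at 1 Ctla2a and 1 C4b UMI, 13.25% at 3 and 2, 24.96% with at least 1000 genes, 23.45% with at most 5% mitochondrial UMIs and 38.59% in cells of 5000 to 20000 UMIs. In tube 2 (56.15%) it was 58.33%, 33.31%, 59% and 62.83% at 1 and 1, at 3 and 2, with 1000 genes and with 5% mitochondrial UMIs, and 41.51% thinned to 3000 UMIs. The count of genes past 2-fold (4) was 2 with at most 5% mitochondrial UMIs, 8 in cells of 5000 to 20000 UMIs (3 higher, Gas6, Gpnmb and Sectm1a, and 5 lower), 2 by the mean CPM per cell, 0 at 3-fold and 9 at a floor of 10 UMIs and 20 CPM, where Mlana entered as higher. The count past 1.25-fold (60) was 112 in cells of 5000 to 20000 UMIs and 115 thinned. Ratios turned for Cxcl13 (0.7565 and 0.9483 with at most 5% mitochondrial UMIs, 0.6667 thinned in tube 2) and Hp (0.8713 and 0.696 thinned), and in tube 1 for Coch (1.025) and Dkk2 (1.071) in cells of 5000 to 20000 UMIs, and the cause was not tested. In the thinned setting members were chosen again on the thinned counts. With the original members, thinned Cxcl13 in tube 2 averaged 0.2607 UMIs per cell against 0.1819 in others. In bulk, genes called between lineages (105) numbered 428 without a filter, 28 with the replicate block, 833 in DESeq2, 788 in limma voom and 320 without the 2 erythroid libraries, and 2 to 1479 with each library left out (2 without PPF P1 A or B, 1479 without PNF P30 B). For P30 against E16.5 (116) they numbered 208, 20, 1276, 2132 and 544, and 0 (without PNF E16.5 B) to 1698 (without PNF P30 B). The calls at P30 split into 107 higher and 36 lower with RLE, 864 and 412 in DESeq2 and 674 and 1458 in voom, and RLE moved the median of all genes from -0.015 to 0.286. Libraries sharing a letter did not deviate together on the whole (median r 0.005, range -0.206 to 0.140, over 62 pairs, against -0.003 over 182 other pairs). A median over all pairs cannot exclude that some letters pair samples. Between lineages C4b turned to 0.816 with the replicate block and ran from -2.974 to 3.070 over left-out libraries (0.623 without PNF P1 B), and at P30 from -2.105 to 6.245.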
